A study of Rattus norvegicus with 4 samples.

Results

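Genes that mark lymphocytes were followed in the livers of rats under inhalational anesthesia. Of 39 marker genes listed by symbol, 38 were found among the 16992 genes of the tables and *Cd79a* was not analysed here. The list holds 23 genes of T and natural killer (NK) cells, 9 genes of B cells and 6 genes that most leukocytes share. They were chosen by name and not by their values, but with earlier results of these data known. Each library represents 1 wild-type Wistar rat, a male whose left lateral lobe of the liver was taken, bought at 6 weeks of age and kept without food or water for 2 hours beforehand. The rats breathed 4.5% sevoflurane or 6% desflurane through a nose cone, either for 6 hours or, as the control of each agent, only until consciousness was lost. The rats at 6 hours had thus been without food for longer than the controls. All 4 rats received an anesthetic, and no library represents an untreated animal. With 1 library per condition, none of the differences below has a replicate check and no p-value was calculated.

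T cells recognize antigen through a receptor that signals through the CD3 chains and the kinases Lck and Zap70, with CD4 or CD8 as co-receptors. NK cells and cytotoxic T cells kill by releasing granules that hold perforin and granzymes, and NK cells are abundant in the liver sinusoids. B cells use a surface immunoglobulin that signals through CD79A and CD79B. In whole liver RNA these cells are a small minority among hepatocytes, and fewer cells of a type cannot be told apart from less RNA per cell.

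Promoter sequences are given for 4 genes, which come from the 3 gene groups and hold the letters counted over all members. All 4 were lower with sevoflurane than in its own control by the limits given below. Against the desflurane control only *Ptprc* passed these limits, and not by its coverage. They were taken from RefSeq (build GRCr8, from 250 bases before to 50 bases after the start of the gene), and 29 of the 39 listed genes, including *Cd79a*, had an entry. *Klrk1* lies on the minus strand at chr4:164778333-164778632, *Gzma* on the minus strand at chr2:46485647-46485946, *Fcmr* on the plus strand at chr13:44889430-44889729 and *Ptprc* on the minus strand at chr13:52259697-52259996. All are written 5′ to 3′ in the direction of the gene. Capitals mark the letters GGAAGT or their reverse complement ACTTCC, which resemble the core bound by ETS factors, and TGTGGT or its reverse complement ACCACA, which resemble the core bound by RUNX factors.
Klrk1: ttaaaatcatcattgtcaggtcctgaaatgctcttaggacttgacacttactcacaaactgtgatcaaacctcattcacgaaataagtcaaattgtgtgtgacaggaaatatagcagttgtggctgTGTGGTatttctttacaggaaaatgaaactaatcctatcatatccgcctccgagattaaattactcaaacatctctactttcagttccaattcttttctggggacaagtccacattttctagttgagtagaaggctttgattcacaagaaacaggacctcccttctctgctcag
Gzma: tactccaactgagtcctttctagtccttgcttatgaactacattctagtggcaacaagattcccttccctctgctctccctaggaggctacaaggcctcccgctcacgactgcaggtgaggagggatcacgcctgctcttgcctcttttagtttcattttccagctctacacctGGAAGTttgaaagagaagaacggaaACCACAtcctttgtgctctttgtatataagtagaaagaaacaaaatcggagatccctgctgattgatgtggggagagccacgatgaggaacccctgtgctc
Fcmr: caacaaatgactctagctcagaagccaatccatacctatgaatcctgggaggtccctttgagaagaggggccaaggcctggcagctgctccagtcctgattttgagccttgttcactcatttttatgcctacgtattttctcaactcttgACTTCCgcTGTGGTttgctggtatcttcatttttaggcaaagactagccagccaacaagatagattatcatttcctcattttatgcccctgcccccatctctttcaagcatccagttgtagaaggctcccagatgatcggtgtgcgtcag
Ptprc: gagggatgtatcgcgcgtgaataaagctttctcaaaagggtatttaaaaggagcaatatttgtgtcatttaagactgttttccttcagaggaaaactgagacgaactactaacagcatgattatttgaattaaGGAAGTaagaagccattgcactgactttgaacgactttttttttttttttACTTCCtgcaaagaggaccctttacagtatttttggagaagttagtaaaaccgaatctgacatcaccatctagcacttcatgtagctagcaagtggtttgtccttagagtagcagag

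The ETS letters were present in 15 of the 29 promoters (51.7%), compared with 22.6% of all 33469 promoters of the same length. They were found in 5 of 6 promoters of the shared leukocyte genes (all but *Coro1a*), 3 of 6 of the B cell genes and 7 of 17 of the T and NK genes. The RUNX letters were present in 10 of 29 promoters (34.5%), compared with 17.3% of all promoters. Of these 10 promoters, 9 belonged to T and NK genes, among them *Gzma*, *Gzmb*, *Gzmk*, *Prf1*, *Nkg7* and *Klrk1*, 1 belonged to the B cell gene *Fcmr*, and 0 of 6 belonged to shared leukocyte genes. These are matches of letters in a window and do not show that a factor is bound.

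The marker genes were expressed at low levels. Mean TPM over the 4 libraries, a transcript abundance corrected for gene length and depth, was higher than 10 for 4 genes, between 1 and 10 for 17 genes and lower than 1 for 17 genes. Values of more than 2 TPM, the limit used to call a difference, were found in all libraries for 11 genes and in no library for 18 genes. The median coverage of the 38 genes, which is the mean number of reads over an exon base, was 2.82 in the sevoflurane control and 1.12 after 6 hours, beside 2.64 in the desflurane control and 2.02 after 6 hours. Aligned sequence ranged from 4.47 to 5.40 Gb per library. Most single values in these genes thus rest on few reads, and the number of reads behind each is not known. The 12 hepatocyte genes of a list, among them *Alb*, were all detected, and their summed level was 168000, 161000, 163000 and 178000 TPM in the same order of libraries.

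**Figure D1:**
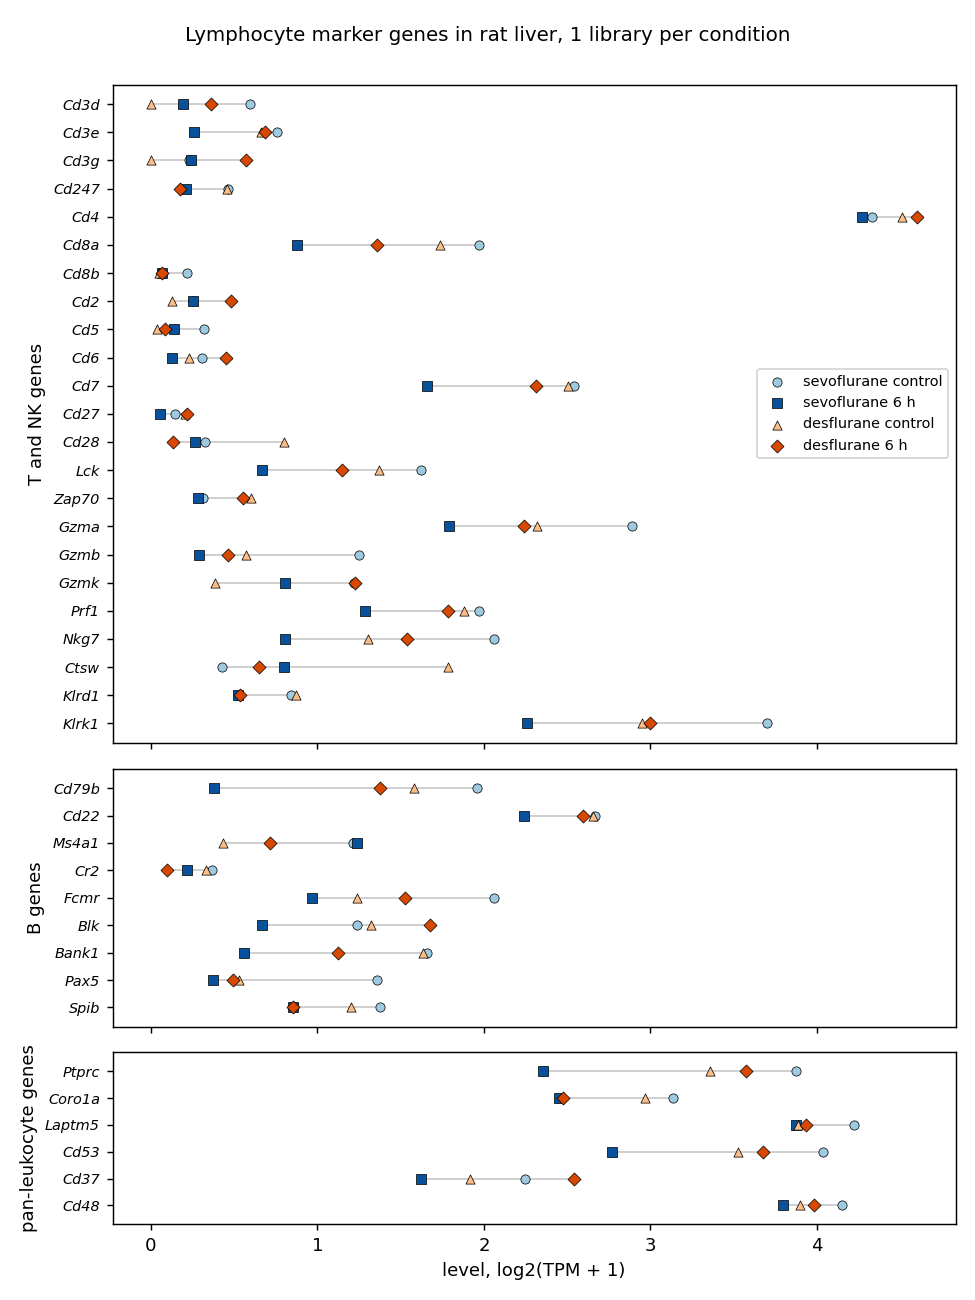
Level of each marker gene in each of the 4 libraries, as log2(TPM + 1), with 1 point per library and the genes of T and NK cells, B cells and all leukocytes in separate panels. The square for 6 hours of sevoflurane is the lowest point for 27 of the 38 genes, and the circle for the sevoflurane control is the highest for 25.

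After 6 hours of sevoflurane, 35 of the 38 marker genes were lower than in the control of the same agent, compared with 43.8% of the 14138 detected genes of the liver. The median difference was -0.47 on the log2(TPM + 1) scale for the 38 genes and 0.05 for the 9136 genes above 2 TPM in all libraries. By group, the medians were -0.32 for T and NK genes, -0.58 for B cell genes and -0.65 for the shared leukocyte genes. The order of the groups depended on the 1 TPM added to each value. Without it the medians were -1.27, -1.22 and -0.82, in the reverse order of size. A difference was called when the higher of 2 libraries was above 2 TPM and more than 2-fold above the lower. Of the 18 marker genes above 2 TPM in the sevoflurane control, 12 were called lower after 6 hours, and the background was 3.38% of 9531 genes. This background was not matched for level. Of its 322 genes called lower, 180 were among the 9136 genes above 2 TPM in all libraries. The few other genes able to pass were called more often. This split cannot show an effect of level, because a gene also leaves that set by falling below 2 TPM after 6 hours. The 12 genes were *Cd8a*, *Cd7*, *Lck*, *Gzma*, *Prf1*, *Nkg7*, *Klrk1*, *Cd79b*, *Fcmr*, *Bank1*, *Ptprc* and *Cd53*. They were 7 of 8 T and NK genes able to pass, 3 of 4 B cell genes and 2 of 6 shared leukocyte genes. In the other direction, 0 of 11 genes able to pass were called higher (background 2.30%). When the same limits were applied to FPKM, which run lower than TPM in these tables, 4 genes were called lower, namely *Gzma*, *Klrk1*, *Ptprc* and *Cd53*.

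After 6 hours of desflurane, 18 of the 38 marker genes were lower than in the desflurane control and 20 were higher, compared with 35.9% of detected genes that were lower. The median difference of the 38 genes was 0.02, with 0.01 for T and NK genes, -0.06 for B cell genes and 0.12 for the shared leukocyte genes, beside 0.11 for the genes above 2 TPM in all libraries. Only *Ctsw* was called lower, among 15 marker genes able to pass (background 1.53%), and 0 of 13 were called higher (background 2.84%). With median-of-ratios scaling, which takes out the general shift, the 3 medians were -0.07, -0.16 and 0.00.

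The choice of control changed these counts. The sevoflurane control held the highest value for 25 of the 38 genes (65.8%, compared with 18.8% of detected genes). This count is taken over all libraries, so that low values at 6 hours add to it. Against the desflurane control, the sevoflurane library had 31 of 38 genes lower (44.6% of detected genes) with a median of -0.33. Of 15 genes able to pass, 5 were called lower (background 2.64%), namely *Cd8a*, *Cd7*, *Ctsw*, *Bank1* and *Ptprc*, and 0 of 11 were called higher (background 2.60%). The desflurane library had 28 of 38 genes lower than the sevoflurane control (35.7% of detected genes) with a median of -0.25, and 0 of 18 were called lower (background 1.64%) and 0 of 13 higher (background 2.89%). Because the 2 agents are compared here with the same 2 controls, these values are not independent of each other.

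**Figure D2:**
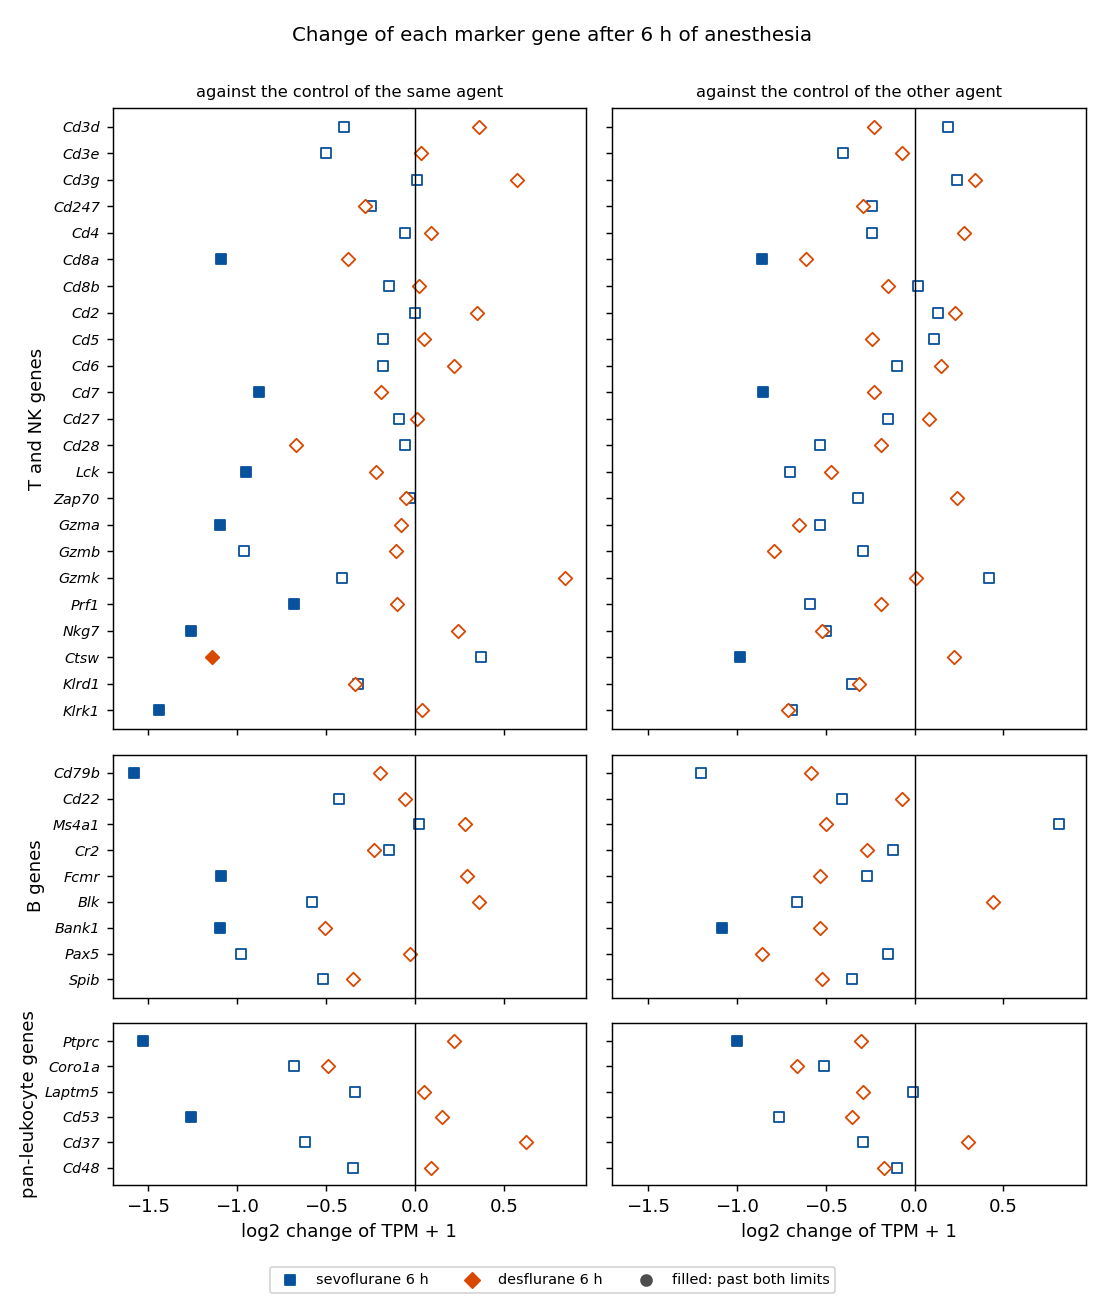
Difference of each marker gene after 6 hours of anesthesia, in log2 of TPM + 1, against the control of the same agent (left) and of the other agent (right). Squares show sevoflurane, diamonds show desflurane and filled symbols passed both limits. On the left 12 squares and 1 diamond are filled, and on the right 5 squares and 0 diamonds are filled.

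The 2 controls, both taken at loss of consciousness, also differed from each other. In the desflurane control 31 of 38 marker genes were lower than in the sevoflurane control, compared with 50.6% of detected genes, and the median difference was -0.20. *Nkg7* and *Fcmr* were called lower, 2 of 18 genes able to pass (background 1.20%), and *Ctsw* was called higher, 1 of 15 (background 1.19%). A value below both controls does not depend on which is chosen. The sevoflurane library was below both for 30 of the 38 genes (78.9%), compared with 31.3% of detected genes, and this held for 16 of 23 T and NK genes, 8 of 9 B cell genes and 6 of 6 shared leukocyte genes. The desflurane library was below both controls for 16 genes (42.1%), compared with 22.6% of detected genes, and above both for 8 genes (21.1%), compared with 49.9%.

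Between the 2 libraries taken at 6 hours, 32 of the 38 genes were higher with desflurane than with sevoflurane, and the median difference was 0.33. Of the 14138 detected genes 8170 were also higher with desflurane, with a median of 0.05. Of 13 genes able to pass, *Blk*, *Ptprc*, *Cd53* and *Cd37* were called higher with desflurane (background 2.80%), and 0 of 11 were called lower (background 1.21%). Without *Ptprc*, which was not past the fold limit by coverage as described below, 3 genes remained.

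The CD3 chains, which define T cells, were all below 1 TPM in every library. *Cd3e* had 0.692 TPM in the sevoflurane control and 0.196 TPM after 6 hours, beside 0.583 TPM in the desflurane control and 0.611 TPM after 6 hours. *Cd3d* was 0.508, 0.141, 0 and 0.286 TPM in the same order, and *Cd3g* was 0.171, 0.18, 0 and 0.485 TPM, so that both are listed at 0 in the desflurane control. *Cd247*, the zeta chain, was lower in both libraries at 6 hours, at 0.159 TPM compared with 0.379 TPM in the control for sevoflurane and 0.127 TPM compared with 0.370 TPM for desflurane. The 4 chains summed to 1.75, 0.676, 0.953 and 1.51 TPM, too low for any of them to be called. *Cd3g*, *Cd3d* and *Cd3e* lie side by side on chromosome 8 of rn6, with gaps of 1.6 kb and 10.5 kb.

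Of the co-receptors, only *Cd8a* was called. *Cd8a*, the alpha chain of CD8 (rn6, chr4:99239115-99243352), had 2.92 TPM in the sevoflurane control and 0.836 TPM after 6 hours, beside 2.33 TPM in the desflurane control and 1.56 TPM after 6 hours. The sevoflurane value was the lowest of the 4 and 3.49-fold lower than its control, whereas the desflurane value was 1.49-fold lower than its own. *Cd8b*, its partner chain, was between 0.0319 and 0.162 TPM, and which cells the *Cd8a* signal came from was not tested. *Cd4*, the co-receptor of helper T cells, was the most abundant marker gene, with 19.1, 18.3, 21.8 and 23.3 TPM in the same order, and differed by 1.04-fold between the sevoflurane libraries and 1.07-fold between the desflurane libraries. In rats, monocytes and macrophages also carry CD4. Without *Cd4*, the summed level of the T and NK genes was 41.4, 15.7, 30.2 and 27.6 TPM, compared with 60.4, 34, 52.1 and 51.0 TPM with it.

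Of the kinases of T cell receptor signaling, *Lck* had 2.08 TPM in the sevoflurane control and 0.589 TPM after 6 hours, beside 1.58 TPM in the desflurane control and 1.22 TPM after 6 hours. It was 3.53-fold lower with sevoflurane and 1.30-fold lower with desflurane than in the respective control. *Zap70* had 0.242, 0.215, 0.518 and 0.466 TPM and was not above the limit in any library. Among the surface molecules, *Cd7*, found on T and NK cells, had 4.82, 2.16, 4.68 and 3.97 TPM. Its 2 controls were 1.03-fold apart, and the sevoflurane library was 2.23-fold and 2.17-fold lower than them. The others, *Cd2*, *Cd5*, *Cd6*, *Cd27* and the co-stimulatory receptor *Cd28*, were all below 1 TPM. *Cd28* had 0.25, 0.2, 0.739 and 0.0939 TPM, with its highest value in the desflurane control, and *Cd6* had 0.235, 0.0919, 0.173 and 0.368 TPM. The row for *Cd2* spans 375 kb in the table, so that its low values are uncertain.

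Of 6 genes of cytotoxic granules, 4 were lowest after 6 hours of sevoflurane and 4 were highest in the sevoflurane control. *Gzma*, which encodes granzyme A (rn6, chr2:44968846-44981436), had 6.41 TPM in the sevoflurane control and 2.46 TPM after 6 hours, beside 4.0 TPM in the desflurane control and 3.73 TPM after 6 hours. It was 2.60-fold lower with sevoflurane than in its own control and 1.63-fold lower than in the desflurane control, and 1.07-fold lower with desflurane than in its own. *Nkg7*, a membrane protein of these granules, had 3.18, 0.744, 1.47 and 1.91 TPM in the same order. The sevoflurane value was 4.28-fold lower than its own control, but the 2 controls were 2.17-fold apart and the difference from the desflurane control was 1.97-fold, just under the limit. *Prf1*, which encodes perforin, had 2.92, 1.44, 2.68 and 2.44 TPM and was 2.02-fold lower with sevoflurane, just past the limit.

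*Gzmb* and *Gzmk*, which encode further granzymes, stayed below 2 TPM in every library. *Gzmb* had 1.38, 0.221, 0.488 and 0.377 TPM, and the sevoflurane control was the one that stood apart. *Gzmk*, next to *Gzma* at a distance of 87.7 kb, had 1.33, 0.746, 0.305 and 1.34 TPM, with the lowest value in the desflurane control. *Ctsw*, which encodes cathepsin W of cytotoxic cells, had 0.345, 0.741, 2.44 and 0.566 TPM. Only the desflurane control was above 1 TPM, 7.10-fold higher than the sevoflurane control, and the 4.32-fold lower value with desflurane and the 3.30-fold lower value of the sevoflurane library against that control both rest on it.

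The NK receptor *Klrk1* encodes NKG2D, which recognizes stress-induced ligands on target cells (rn6, chr4:163393217-163403653). It had 12.0 TPM in the sevoflurane control and 3.79 TPM after 6 hours, beside 6.73 TPM in the desflurane control and 6.98 TPM after 6 hours. The sevoflurane library was the lowest, 3.18-fold below its own control and 1.78-fold below the desflurane control, and the sevoflurane control was the highest. The desflurane libraries were 1.04-fold apart. *Klrd1*, which encodes CD94 and lies 23.3 kb away, had 0.794, 0.439, 0.832 and 0.449 TPM, lower in both libraries at 6 hours by 1.81-fold and 1.85-fold but below the TPM limit.

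Among B cell genes, *Cd79b*, the signal chain of the B cell receptor (rn6, chr10:94497445-94500591), had 2.89 TPM in the sevoflurane control and 0.3 TPM after 6 hours, beside 1.99 TPM in the desflurane control and 1.60 TPM after 6 hours. The sevoflurane value was 9.63-fold below its own control, the largest fold among the 12 genes called, and 6.63-fold below the desflurane control, which itself was just under 2 TPM. *Bank1*, an adaptor of B cell receptor signaling, had 2.16, 0.475, 2.11 and 1.18 TPM. Its controls were 1.02-fold apart, and the sevoflurane library was 4.55-fold and 4.45-fold below them. The receptor for IgM *Fcmr* (rn6, chr13:47602770-47617015) had 3.17, 0.958, 1.36 and 1.88 TPM, a 3.31-fold lower value with sevoflurane against its own control but a 1.41-fold lower value against the other, as the controls were 2.34-fold apart.

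*Cd22*, an inhibitory receptor and the most abundant B cell gene, had 5.36, 3.73, 5.29 and 5.05 TPM and was 1.44-fold lower with sevoflurane, within the fold limit. The kinase *Blk* had 1.36, 0.585, 1.5 and 2.20 TPM and was 3.76-fold higher with desflurane than with sevoflurane at 6 hours. *Pax5*, the factor that maintains B cell identity, had 1.56, 0.297, 0.440 and 0.408 TPM, so that only the sevoflurane control stood apart, and *Spib*, an ETS factor, had 1.59, 0.805, 1.30 and 0.809 TPM. *Ms4a1*, which encodes CD20, went against the other B cell genes, with 1.32 TPM in the sevoflurane control and 1.36 TPM after 6 hours, beside 0.349 TPM in the desflurane control and 0.642 TPM after 6 hours. *Cr2*, the complement receptor of B cells, was below 0.3 TPM throughout.

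All 6 shared leukocyte genes were lowest after 6 hours of sevoflurane, and 5 were highest in the sevoflurane control. *Cd53*, a tetraspanin, had 15.4 TPM in the sevoflurane control and 5.81 TPM after 6 hours, beside 10.5 TPM in the desflurane control and 11.8 TPM after 6 hours. It was 2.64-fold lower than its own control with sevoflurane and 1.12-fold higher with desflurane. *Laptm5*, a lysosomal protein of leukocytes, had 17.7, 13.7, 13.8 and 14.3 TPM, and *Cd48*, a ligand of lymphocyte receptors, had 16.8, 12.9, 13.9 and 14.8 TPM. The sevoflurane library was 1.01-fold and 1.07-fold below the desflurane control for these genes, and their differences of 1.29-fold from their own control were within the fold limit. *Coro1a*, an actin regulator, had 7.78, 4.48, 6.83 and 4.56 TPM, lower in both libraries at 6 hours by 1.74-fold and 1.5-fold. *Cd37*, another tetraspanin, had 3.74, 2.08, 2.78 and 4.82 TPM, the only gene of this group that was highest with desflurane, and it overlaps *Tead2* on the opposite strand, which was at 2.36 to 3.81 TPM.

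*Ptprc* encodes CD45, the phosphatase present on all leukocytes (rn6, chr13:55061561-55173707). It had 13.7 TPM in the sevoflurane control and 4.11 TPM after 6 hours, beside 9.24 TPM in the desflurane control and 10.9 TPM after 6 hours. By these values it was 3.34-fold lower with sevoflurane and 1.18-fold higher with desflurane. However, it was the only marker gene whose FPKM did not follow its coverage at the ratio of its library, and the ratio was 1.66, 1.0, 1.37 and 1.66 times the library median in the same order. Its coverage placed on the TPM scale was 8.28, 4.11, 6.74 and 6.57 TPM. On this scale it was 2.01-fold lower with sevoflurane than in its own control, 1.64-fold lower than in the desflurane control and 1.03-fold lower with desflurane than in its own, and the 1.60-fold difference between the libraries at 6 hours no longer passed.

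**Figure D3:**
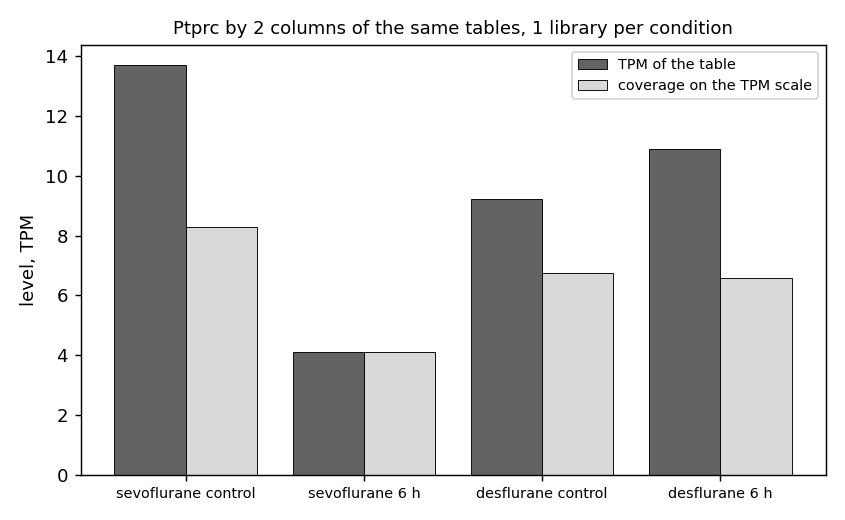
Level of *Ptprc* in each library by the TPM of the tables (dark bars) and by coverage placed on the TPM scale (light bars), with 1 library per condition and no error bars. The bars are equal at 4.11 TPM after 6 hours of sevoflurane and differ in the other 3 libraries, where TPM is 13.7, 9.24 and 10.9 and coverage gives 8.28, 6.74 and 6.57.

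Summed over the 38 genes, the level was 155 TPM in the sevoflurane control and 85.9 TPM after 6 hours, beside 124 TPM in the desflurane control and 126 TPM after 6 hours. The B cell genes summed to 19.7, 8.67, 14.6 and 13.8 TPM and the shared leukocyte genes to 75.1, 43.2, 57.1 and 61.3 TPM. The shares of the 3 groups in this sum varied little, with 38.9%, 39.6%, 42.1% and 40.4% for T and NK genes. The T and NK genes without *Cd4* made up 26.7%, 18.3%, 24.4% and 21.9% of the same sum, lowest with sevoflurane. That sum still holds *Cd4*, which varied little, so that this share falls further than it would with *Cd4* left out of both.

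**Figure D4:**
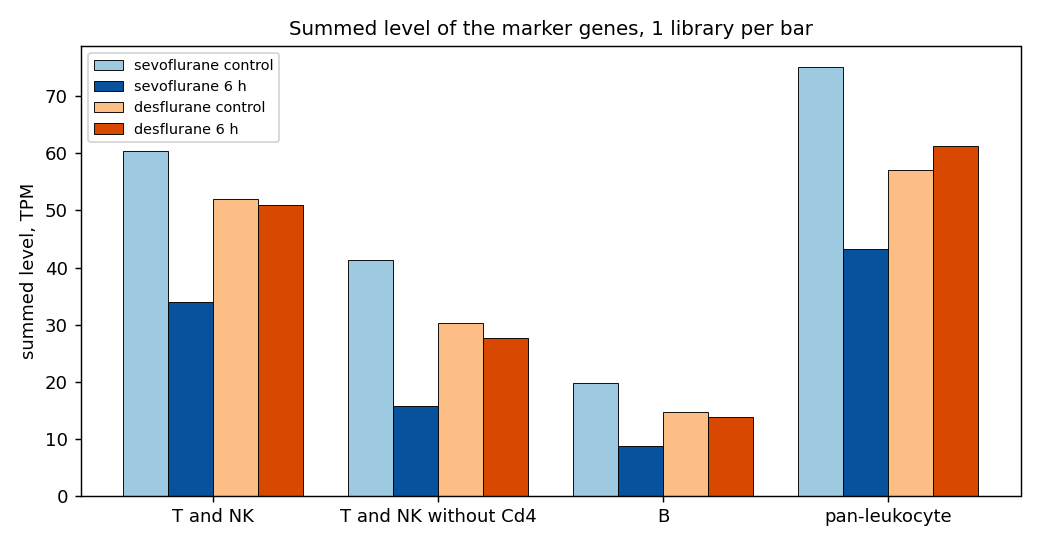
Summed TPM of the marker genes in each library, for T and NK genes with and without *Cd4*, B cell genes and shared leukocyte genes, with 1 library per bar and no error bars. In each set the bar for 6 hours of sevoflurane is the lowest (34, 15.7, 8.67 and 43.2 TPM) and that for the sevoflurane control the highest.

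Other genes of the same cells were taken from lists written by name. Of 18 further genes of T cell receptor signaling, 14 were lower with sevoflurane than in its control (median -0.32) and 9 with desflurane (median -0.01), and 0 were called with either agent. *Lcp2*, an adaptor, differed most with sevoflurane, from 5.93 to 3.18 TPM, whereas *Fyn* was at 4.41 and 4.52 TPM. Of 11 T cell transcription factors, 11 were lower with sevoflurane (median -0.23) and 6 with desflurane (median -0.03), and 0 were called. *Zbtb7b* and *Ets1*, the most abundant of them, had 64.7 and 29.7 TPM in the sevoflurane control and 61.1 and 27.8 TPM after 6 hours. Of 22 further NK and cytotoxic genes, 14 were lower and 8 higher with sevoflurane than in its control (median -0.19). With desflurane 11 were lower and 10 higher (median -0.01). Called lower with sevoflurane were 5, *Gzmc*, *Xcl1*, *Hcst*, *Tyrobp* and *Fcgr3a*. Against the desflurane control 12 were lower and 10 higher with sevoflurane (median -0.13), and only *Xcl1* and *Fcgr3a* were called. *Fcgr3a*, which encodes the Fc receptor CD16 of NK cells and macrophages, had 12.9, 3.01, 9.93 and 5.91 TPM and was also called lower with desflurane against the sevoflurane control (2.18-fold). *Tyrobp*, which encodes the adaptor DAP12, had 48.9, 22.8, 34.3 and 33.6 TPM. *Hcst*, the adaptor DAP10 through which NKG2D signals, had 3.30, 1.49, 0.372 and 2.77 TPM and was the 1 gene of this list called higher with desflurane. Its lowest value was in the desflurane control, and against this control the sevoflurane library was higher, by 0.86 on the log2 scale. Of 16 further B cell genes, *Fcrla*, *Cd74* and *Ciita* were called lower with sevoflurane and 0 with desflurane. Against the desflurane control 0 were called with sevoflurane, and the median went from -0.24 to -0.10. *Cd74*, the invariant chain of MHC class II, had 364, 111, 213 and 252 TPM, and other antigen-presenting cells also express it.

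Lower levels with sevoflurane were also found for general leukocyte and macrophage genes, and the median of 6 dendritic cell genes was -0.37. The medians of neutrophil, mast cell and basophil, and plasma cell genes were -0.01, -0.07 and -0.14. However, only 0 of 10, 0 of 8 and 2 of 6 of these genes were above 2 TPM in the sevoflurane control. At such levels a median on the log2(TPM + 1) scale can move little, so that no contrast between cell types can be drawn from these 3 lists. Of 23 further genes expressed in many leukocytes, 22 were lowest in the sevoflurane library, and the median difference from its own control was -0.64, with 5 called lower (*Itgal*, *Hcls1*, *Rac2*, *Il2rg* and *Fyb1*). Against the desflurane control the median was -0.40, and *Hcls1* and *Rac2* were called. *Rac2*, a GTPase of blood cells, had 29.6, 8.74, 21.4 and 17.8 TPM. With desflurane 20 of the 23 were lower (median -0.16) and 0 were called. Markers of Kupffer cells, the macrophages of the liver, were lowest in the sevoflurane library for 14 of 14 genes (median -0.63), and *Cd5l*, *Marco*, *Csf1r* and *Adgre1* were called. Against the desflurane control the median was -0.31, and *Cd5l* and *Marco* were called. Their summed level was 896, 558, 727 and 852 TPM, and *Clec4f*, which is restricted to Kupffer cells in rodents, had 121, 76.5, 94.7 and 123 TPM. With desflurane the median of the Kupffer list was 0.15. The differences of the marker genes were thus accompanied by differences of the same sign in macrophage genes, and which cells the shared genes came from was not tested.

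Markers of blood and of other liver cells had other orders. The 9 erythroid genes summed to 126, 89.0, 92.9 and 52.9 TPM. Their medians were -0.41 with sevoflurane and -0.63 with desflurane against the own control, and *Alas2* and *Hbb* were called lower with sevoflurane and desflurane, respectively. Against the other control 0 were called lower with sevoflurane and 5 with desflurane. Of these 9 genes, 7 were lowest after 6 hours of desflurane and 0 after 6 hours of sevoflurane, where 27 of the 38 lymphocyte genes had their lowest value. *Hba-a2* and *Hba1*, the most abundant of the erythroid genes, had nearly equal values in every library (33.6 and 33.1 TPM in the sevoflurane control). They may thus not be separate counts among the 9. The part of blood content or of library preparation in the differences was not tested. The medians of 12 hepatocyte genes were -0.05 and 0.14, those of 11 endothelial genes -0.01 and 0.19, those of 11 stellate and fibroblast genes 0.17 and 0.12, and those of 5 cholangiocyte genes 0.15 and -0.11 for sevoflurane and desflurane. Ribosomal RNA took 1.26%, 2.94%, 4.50% and 0.979% of the annotated signal in the 4 libraries, and leaving it out did not change the 12 genes called.

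**Figure D5:**
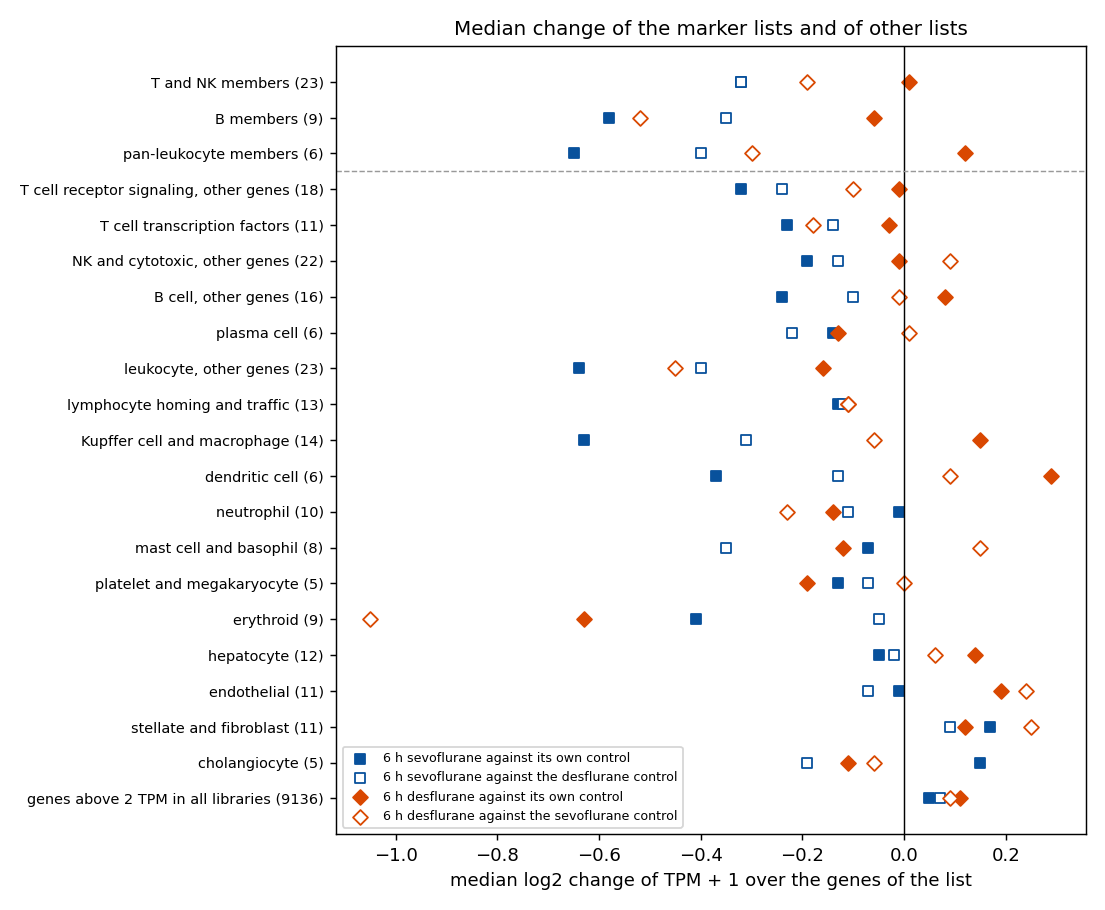
Median log2 change of TPM + 1 for the 3 groups of marker genes (above the dashed line) and 17 other lists, with the number of genes in parentheses. Squares show sevoflurane and diamonds desflurane, filled against the own control and open against the other. The filled squares of the shared leukocyte, other leukocyte and Kupffer genes lie between -0.65 and -0.63, those of hepatocyte and endothelial genes at -0.05 and -0.01. The filled and open squares of T and NK genes coincide at -0.32, although the genes behind them differ. Against the own control 21 of these 23 genes were lower and 7 were called, and against the other control 17 were lower and 3 were called.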

How the data were processed

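RNA of 4 rat livers, 1 per condition, was sequenced by the authors, who trimmed reads with sickle and processed them with HISAT2, SAMtools and StringTie on rn6, as the labels also name without versions. The library kit is given differently by the paper (Stranded Total RNA Prep with Ribo-Zero Plus) and the labels (TruSeq Stranded Total RNA Gold), and whether counting used strand is not given in the sources used here. The deposited coverage is an average signal over the exons of a gene, without correction for library size. The FPKM values deposited by the authors are normalized for gene length and library size. The deposited TPM values are a signal scaled by StringTie so that assembled rows sum to 1000000, and annotated rows, between 779824 and 813454 in sum, come on top. No read counts were used, and counting error is therefore unknown.

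Rows of assembled transcripts and rows of 200 bp or shorter were left out, and TPM was summed per symbol. A difference was called when the higher library was above 2 TPM and more than 2-fold above the lower, and log2 changes used a pseudocount of 1 TPM, which understates the change of low genes. Groups came from the labels. No test was made. The members, roles and lists were chosen with earlier results of these data known. All members are named, and from each other list the 2 most abundant genes and the largest change for each agent could be named. Genes behind counts of 5 or fewer were named in addition, after their values were seen. Members were matched to promoters by symbol. Alternatives were the other control, FPKM, median-of-ratios scaling, rescaling without rRNA, pseudocounts, limits, and the treatment of short or repeated rows. Coverage on the TPM scale (coverage times the median ratio of its library) and lists without *Ptprc* or *Cd4* were added after the data had been seen. Python 3.11.15, numpy 2.4.6, pandas 2.3.3 and matplotlib 3.10.9 were used. The calling code was run on simulated data, with a large set change in genes more abundant than most marker genes and little noise. That run checks the code only and cannot show how reliable calls are at the levels of the marker genes.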

Additional observations from a re-analysis of the deposited data

Results flagged for a closer look

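Several values had opposite signs with the 2 agents, each against its own control. With 1 library per condition these differences between agents were not tested, and they share the dependence on the control described above. On the log2(TPM + 1) scale, the change with desflurane minus that with sevoflurane was 0.33 for the median of the T and NK genes and 0.77 for the median of the shared leukocyte genes. Among single genes it was 1.5 for *Nkg7*, 1.49 for *Klrk1*, 1.38 for *Fcmr*, 1.74 for *Ptprc* and 1.42 for *Cd53*, all lower with sevoflurane and slightly higher with desflurane, where no change of these 5 genes passed the limits. The signs with desflurane are weak, as the T and NK median was 0.01 and became negative under 7 alternatives, the shared leukocyte median of 0.12 was 0.00 with median-of-ratios scaling, and *Klrk1* changed by 0.04, less than the median of 0.11 over genes above 2 TPM in all libraries. It was -1.51 for *Ctsw*, which was higher with sevoflurane and lower with desflurane. For *Ptprc*, coverage gave a change of -0.86 with sevoflurane and -0.03 with desflurane, so that the directions were no longer opposite. For *Ctsw*, *Nkg7* and *Fcmr* the 2 controls themselves were more than 2-fold apart.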

How the results depend on the processing

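Of 86 values recomputed, 54 stayed close to the reported one, 24 moved and 8 changed sign. Close meant within 0.1 for a log2 median and within 1.5-fold for a count. By this rule 8 and 17 genes called lower with sevoflurane were still close to 12. Each marker gene had 1 row, so that the treatment of repeated rows could not move a value, and keeping short rows moved none. The 54 therefore include values that could not move. With sevoflurane, all alternatives run kept the 3 medians negative. Against the other control the medians of B and shared leukocyte genes were -0.35 and -0.40 and 5 genes were called lower in place of 12. With FPKM the medians of T and NK, B and shared leukocyte genes were -0.17, -0.36 and -0.53 and 4 genes were called. With a pseudocount of 0.1 TPM they were -0.83, -1.10 and -0.80, and with none -1.27, -1.22 and -0.82, since low genes then count fully. With genes of a mean of at least 1 TPM the T and NK and B medians were -0.95 and -0.83. With desflurane, the T and NK median changed sign under 7 alternatives and the shared leukocyte median under 1, while the B median stayed negative under all that were run. Against the other control they were -0.19, -0.52 and -0.30 and 0 genes were called lower. With median-of-ratios scaling they were -0.07, -0.16 and 0.00, and with rescaling over annotated genes without rRNA -0.06, -0.16 and 0.02. The T and NK median was -0.02 with FPKM, -0.10 without a pseudocount, -0.10 for genes of at least 1 TPM and -0.02 without *Cd4*. The count called lower with desflurane was 0 with FPKM and 2 with a TPM limit of 0.5 or a fold limit of 1.5. The cause of these shifts was not tested where the alternative itself does not give it.

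No replicate could be left out and no paired analysis was possible because each condition has 1 library. Rat, agent, duration, time without food and library therefore cannot be told apart. With a TPM limit of 1 or 0.5, 15 and 17 genes were called lower with sevoflurane, and with a fold limit of 3 there were 8. Low coverage limits the CD3 chains and other genes under 1 TPM.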

Other observations

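Genes of lymphocyte homing and other blood cells gave further values. Of 13 homing and traffic genes, 11 were lower with sevoflurane (median -0.13) and 8 with desflurane (median -0.11). *S1pr1*, the receptor that guides lymphocytes out of lymphoid tissue and that endothelial cells also express, had 70.5 TPM in the sevoflurane control and 38.0 TPM after 6 hours, beside 80.4 TPM in the desflurane control and 37.2 TPM after 6 hours. Both libraries at 6 hours were below both controls, and the call depended on the control. Against the own control the gene was called lower with desflurane (2.16-fold) and not with sevoflurane (1.86-fold), and against the other control it was called with sevoflurane (2.12-fold) and not with desflurane (1.89-fold). *Icam1*, an adhesion molecule that lymphocytes bind, had 23.7, 22.5, 34.4 and 24.1 TPM. Of 6 dendritic cell genes the medians were -0.37 with sevoflurane and 0.29 with desflurane, and 0 were called. *Clec9a*, a receptor of cross-presenting dendritic cells, had 3.0, 2.1, 2.14 and 2.97 TPM.

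The 10 neutrophil genes were low, summing to 5.18, 4.31, 6.07 and 2.37 TPM, with medians of -0.01 and -0.14 for sevoflurane and desflurane. Plasma cell genes had medians of -0.14 and -0.13, and *Derl3* was called higher with desflurane, from 1.78 to 3.67 TPM, but not against the sevoflurane control, which was at 2.99 TPM. Mast cell and basophil genes had medians of -0.07 and -0.12, with *Mcpt2* called lower with desflurane, from 2.78 to 1.33 TPM. Against this high control the sevoflurane library was called as well (2.72-fold lower), and the sevoflurane control was at 1.3 TPM, so that both calls rest on the desflurane control. Platelet and megakaryocyte genes had medians of -0.13 and -0.19, with 0 called. Of the T cell factors, *Foxp3*, which marks regulatory T cells, had 0.942, 0.0823, 0.460 and 0.821 TPM, below the TPM limit in all libraries.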
